A study of Mus musculus with 16 samples.

Results

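The genes described here encode the nuclear part of mitochondrial complex I in mouse hearts. They were chosen by name as structural NADH dehydrogenase subunits encoded in the nucleus, with assembly factors left out, and all 35 were found among the 30153 genes of the deposited table.

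The 16 hearts, 1 library each, fall into 4 groups, and the design text says that each group is made of separate animals. They are aged animals with the haplotype-I (Hap-I) transgene fed a western diet (n = 5), aged Hap-I animals with no diet named (n = 4), adult Hap-I animals fed a western diet (n = 4), and adult C57 animals with no transgene and no diet named (n = 3). All samples carry the C57/BL6 strain label. Hap-I denotes a human angiotensin II type 1 receptor gene that the mice overexpress according to the series title, and a western diet is a feed high in fat and sugar. The labels give no age in weeks or months, no sex, no promoter for the transgene and no number of founder lines. The sample labels place the adult Hap-I mice on the western diet, whereas the design text lists that group without one. The sample labels were followed. There are no aged C57 hearts, so in the comparisons of aged Hap-I groups with C57 hearts, age cannot be told apart from the transgene, and in the western-diet groups diet cannot be told apart from either.

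Complex I oxidises NADH, passes the electrons through a flavin and a chain of iron-sulfur clusters to ubiquinone, and pumps protons across the inner mitochondrial membrane. It is built from a peripheral arm in the matrix, which holds the redox cofactors, and a membrane arm, which holds the proton pumps. A small set of core subunits does the chemistry, some encoded in the nucleus and some in mitochondrial DNA, and the accessory subunits surround and stabilise them. The heart runs mainly on oxidative phosphorylation and is rich in complex I.

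The hearts were read as TPM, a relative transcript level per unit of transcript length that keeps no sequencing depth, so the depth is unknown and all errors are spreads between animals. The number of genes at 1 TPM or more ran from 9553 to 11175 per library. Values below are TPM divided by a size factor of each library (0.682 to 1.239) and are called scaled TPM. Mitochondrially encoded transcripts held 31.1% to 46.1% of the TPM. Y-linked transcripts summed to under 1 TPM in 3 aged western-diet hearts (replicates 1, 2 and 3) and 2 adult western-diet hearts (replicates 1 and 2). The summed level of 8 atrial markers ranged from 91.6 to 204 scaled TPM in aged western-diet hearts, 100.1 to 5145 in aged hearts, 40.4 to 1186 in adult western-diet hearts and 235.3 to 6786 in C57 hearts, so hearts differed in how much atrial tissue they showed. The summed level of 14 ventricular cardiomyocyte markers was 49130 to 60620 in aged western-diet hearts, 51480 to 64220 in aged hearts, 50120 to 62460 in adult western-diet hearts and 61190 to 67810 in C57 hearts. Cardiomyocyte markers were thus high in every library.

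Promoter sequence was examined because many of these genes are known targets of a few nuclear factors (NRF1, GABPA, YY1 and the estrogen-related receptors) that drive respiratory genes. RefSeq promoter windows, 250 bases before to 50 bases after the transcription start on GRCm38.p6, were found for 32 of the 35 genes. In all, 4 motifs were searched on both strands, none of which contains another, and a match is only a match of letters. The YY1 motif AAGATGGCG stood in 5 of the 32 genes, 15.6%, against 3.78% of the 8734 tested genes with a window; per window the shares were 14.7% for the subunits and 1.4% for all 32851 windows. In all 5 it lay just downstream of the start, with its first base at position 22 to 35, counting the first transcribed base as 0. The motif holds the letters ATG, and whether these were translation start codons was not tested. The NRF1 motif GCATGCGC stood in 3 genes, 9.38%, against 6.09% of tested genes, and per window in 8.82% against 2.71%. The GABPA motif CCGGAAG stood in Ndufb6, Ndufb7, Ndufs3 and Ndufs8, 12.5% of the subunit genes against 20.7% of tested genes, and per window in 11.8% against 8.86%. The estrogen-related receptor motif TCAAGGTCA stood in 0 of the 32 genes, against 0.332% of tested genes and 0.423% of all windows.

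The 5 YY1 matches and 3 NRF1 matches are shown on the coding strand, 5′ to 3′, with the matching letters in capitals and 10 bases on either side where the window reached that far. In Ndufa11 the motif matches on both strands at overlapping positions, and the capitals cover both. The coordinates are chr6:126849097-126849125 (minus strand) for Ndufa9, chr3:51408915-51408943 (minus) for Ndufc1, chr13:114388045-114388069 (minus) for Ndufs4, chr13:73328433-73328459 (minus) for Ndufs6, chr10:80249463-80249491 (plus) for Ndufs7, chr17:56717692-56717721 (plus) for Ndufa11, chr15:82354357-82354384 (minus) for Ndufa6 and chr2:36049329-36049356 (minus) for Ndufa8.
Ndufa9, YY1: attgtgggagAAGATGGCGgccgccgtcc
Ndufc1, YY1: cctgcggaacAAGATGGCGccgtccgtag
Ndufs4, YY1: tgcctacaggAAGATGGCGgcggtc
Ndufs6, YY1: ggtcaccggcAAGATGGCGgcggtgct
Ndufs7, YY1: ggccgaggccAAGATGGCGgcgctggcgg
Ndufa11, NRF1: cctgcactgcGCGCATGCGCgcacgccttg
Ndufa6, NRF1: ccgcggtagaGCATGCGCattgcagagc
Ndufa8, NRF1: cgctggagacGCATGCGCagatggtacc

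Ndufa9, the subunit called in each comparison of a Hap-I group with C57 hearts below, has its upstream promoter at chr6:126849145-126849394 on the minus strand. These 250 bases before the start hold none of the 4 motifs, so no letters are in capitals.
Ndufa9 promoter: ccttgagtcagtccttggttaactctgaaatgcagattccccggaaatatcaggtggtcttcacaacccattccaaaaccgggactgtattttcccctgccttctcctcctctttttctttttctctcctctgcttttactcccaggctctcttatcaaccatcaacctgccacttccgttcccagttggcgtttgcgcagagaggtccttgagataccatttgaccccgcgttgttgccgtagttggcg

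All 35 subunit genes passed the filter of at least 1 TPM in at least 3 libraries. Their mean levels over the 16 hearts spanned 78.9-fold around a median of 403 scaled TPM. TPM is per length, but values still moved with transcript length, as described below, so levels of different genes compare only roughly. Ndufb8, an accessory subunit of the distal membrane arm, was the most abundant, with 1051 ± 201 scaled TPM in aged western-diet hearts (SD, n = 5), 1142 ± 139 in aged hearts (n = 4), 1178 ± 256 in adult western-diet hearts (n = 4) and 1290 ± 45.2 in C57 hearts (n = 3). Its values were 871.1, 1217, 916.8, 1316 and 932.7 in aged western-diet hearts, 1225, 1290, 989.4 and 1063 in aged hearts, 1158, 1402, 1325 and 825.3 in adult western-diet hearts, and 1250, 1281 and 1339 in C57 hearts. The groups overlapped throughout.

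Ndufs8, a core subunit that carries iron-sulfur clusters, was the least abundant. It stood at 10.7, 17.7, 14.5, 18.6 and 13 scaled TPM in aged western-diet hearts, 16.3, 12.6, 14.4 and 12.1 in aged hearts, 11.1, 19.4, 18 and 12.3 in adult western-diet hearts, and 16.1, 10.3 and 16.4 in C57 hearts. The groups overlapped. Ndufs4, an accessory subunit of the peripheral arm whose loss in mice causes a Leigh-like encephalopathy, was the next lowest at 17.7 ± 3.1 in aged western-diet hearts, 18.2 ± 3.17 in aged hearts, 23.7 ± 3.94 in adult western-diet hearts and 20 ± 3.46 scaled TPM in C57 hearts. The other core subunits were far more abundant, with Ndufv1 at 586.6 ± 10.7 and Ndufs7 at 425.8 ± 61 scaled TPM in C57 hearts. Between these ends the order is loosely set: 27 of the 34 pairs of neighbours in the level order were closer than 1 SD of replicate hearts.

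Hearts differed in their complex I level as a whole, within groups as well as between them. Each gene was set against its own mean over the 16 hearts on the log2(scaled TPM + 1) scale, and the median of these deviations over the 35 genes was taken for each heart. This median deviation was -0.43, 0.09, -0.30, 0.20 and -0.15 in aged western-diet hearts, 0, 0.12, -0.26 and -0.17 in aged hearts, 0.03, 0.38, 0.16 and -0.27 in adult western-diet hearts, and 0.23, 0.24 and 0.29 in C57 hearts. The C57 hearts were uniformly high, whereas each Hap-I group held hearts on both sides of 0. Adult western-diet replicate 2 was above every C57 heart and aged western-diet replicate 1 was the lowest of all, with 1 of 35 subunits above its mean. These are bulk hearts, in which fewer cells of a type and less RNA per cell cannot be told apart.

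**Figure D1:**
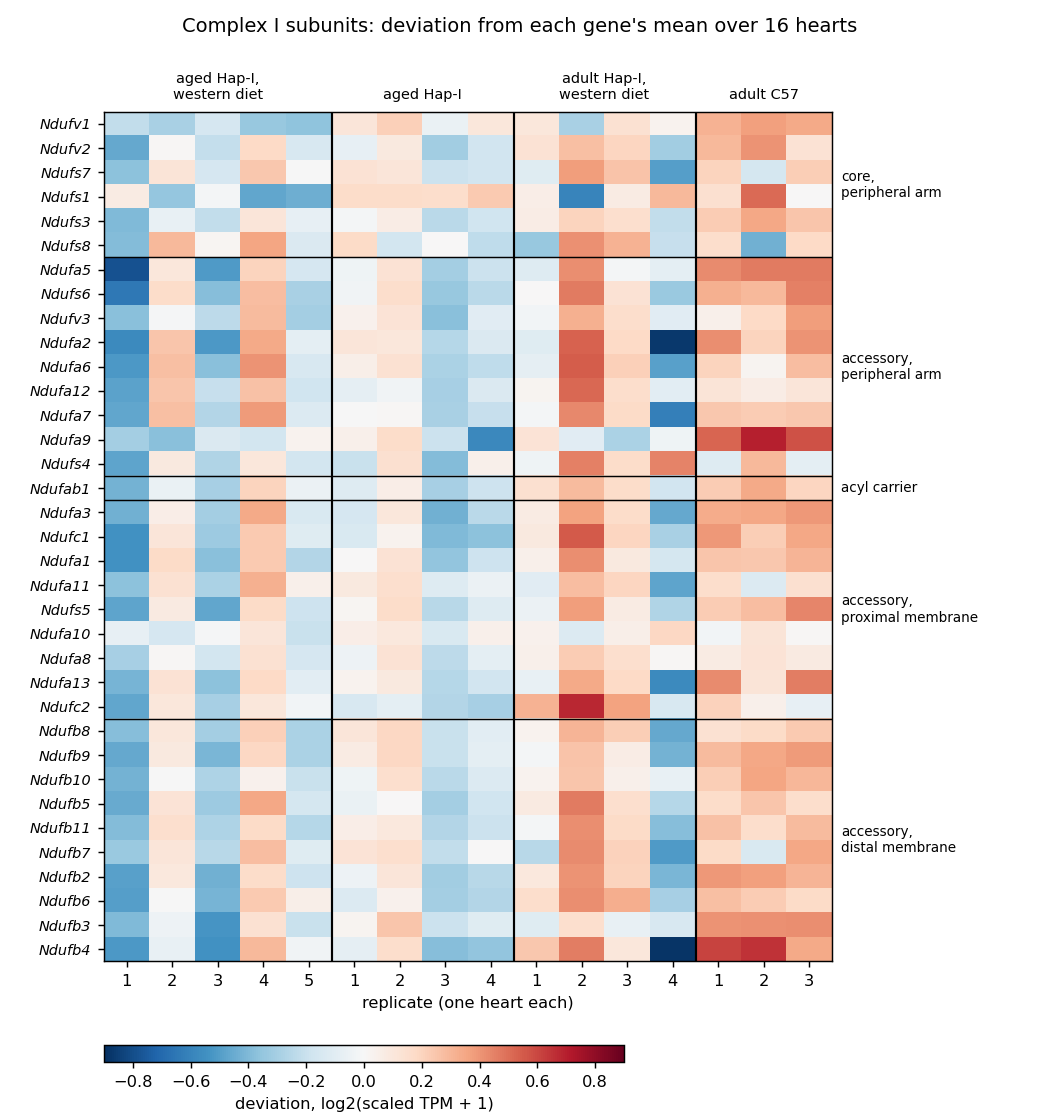
Deviation of each of the 35 subunit genes from its own mean over the 16 hearts, in log2(scaled TPM + 1); columns are hearts in their groups, rows are genes by role and then by level. Whole columns shift together (aged western-diet replicate 1 low, adult western-diet replicate 2 high), the 3 C57 columns are mostly red, and Ndufs1, Ndufv1, Ndufa10 and Ndufa9 depart from the columns.

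Most of the subunits moved together from heart to heart. After each group's mean was taken out, 29 of the 35 genes followed the median of the other 34 with a correlation above 0.8 over the 16 hearts, and the median correlation was 0.93. The points share library and scaling, so this is a description of these libraries. The other 6 genes stood apart. Ndufs1, a core subunit with iron-sulfur clusters, ran against the rest at -0.75, Ndufv1 (core, which binds NADH and the flavin) stood at -0.32, Ndufa10 at -0.09, Ndufa9 at 0.09, Ndufs4 at 0.49 and Ndufs8 at 0.65. Within-group SDs on the log2 scale ran from 0.112 for Ndufa10 to 0.398 for Ndufa2, with a median of 0.25.

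Transcript length moved with this shared level. The subunit transcripts are short, with a median length of 782 bases (382 to 2625.5), against 2596 bases over the tested genes. In each heart, the deviations of all tested genes with a length (11343) were ranked against transcript length. That rank correlation was 0.53, -0.19, 0.42, -0.34 and 0.27 in aged western-diet hearts, 0.22, 0.07, 0.48 and 0.47 in aged hearts, -0.29, -0.51, -0.40 and 0.28 in adult western-diet hearts, and -0.28, -0.11 and -0.31 in C57 hearts. The hearts in which long transcripts stood highest were those in which complex I stood lowest. Of the genes that departed from the shared level, Ndufs1 (2625.5 bases), Ndufa10 (2020), Ndufs4 (1698), Ndufv1 (1528.5) and Ndufa9 (1341.5) are long for the set. Ndufab1 (2447.5) and Ndufb2 (2413) also have long lengths and followed the shared level at 0.93 and 0.98. All these lengths are medians of annotated transcripts, and which of the transcripts the hearts expressed was not tested. With the deviations corrected for length within each library, the median deviation became -0.17, -0.05, -0.07, 0.05 and -0.05 in aged western-diet hearts, 0.06, 0.11, -0.09 and -0.00 in aged hearts, -0.03, 0.03, 0.06 and -0.08 in adult western-diet hearts, and 0.11, 0.19 and 0.13 in C57 hearts. The spread narrowed, and 1 aged heart then reached the lowest C57 heart.

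**Figure D2:**
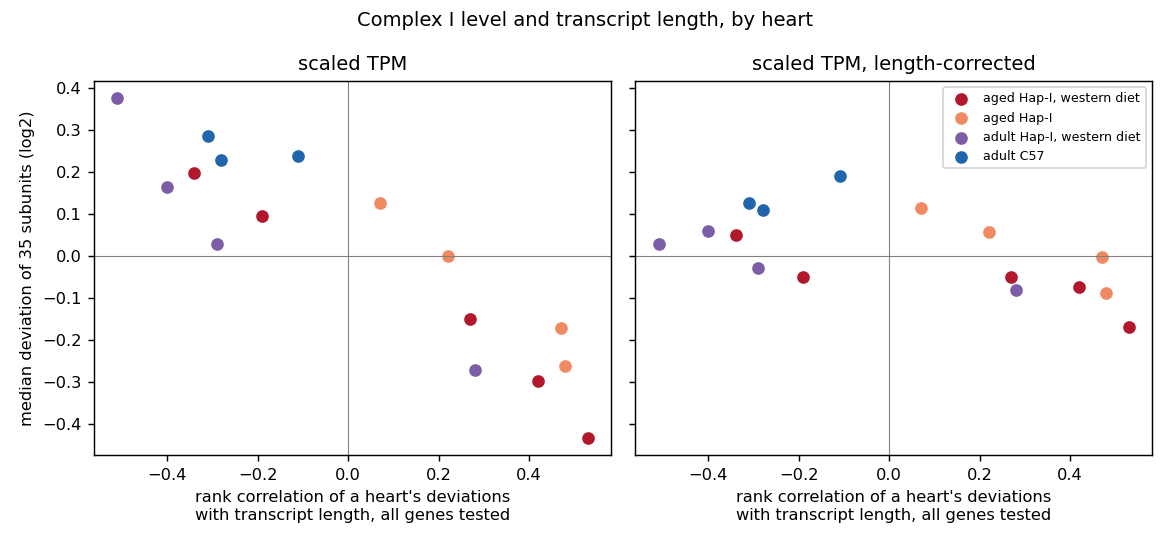
Median deviation of the 35 subunits (log2, vertical) against the rank correlation of a heart's deviations with transcript length over all tested genes (horizontal), 1 point per heart, before (left) and after (right) the length correction. Uncorrected medians run from -0.43 to 0.38 and fall from left to right; corrected medians run from -0.17 to 0.19, with the C57 hearts at 0.11, 0.19 and 0.13.

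The first comparison asks how aged Hap-I hearts with and without the western diet differed. None of the 35 subunits passed the test (limma, Benjamini-Hochberg adjusted p under 0.05 over 11415 genes), where 0.166% of all tested genes did, in either direction. At an unadjusted p under 0.05 there were 2, where 15.9% of all tested genes were. The median log2 fold change of aged western-diet over aged hearts was -0.04 for the subunits, 25 of them negative, against 0.00 for all genes.

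The 2 subunits with an unadjusted p under 0.05 were the core subunits Ndufv1 and Ndufs1. Ndufv1 had 396.6, 378.5, 417.6, 365.7 and 359.4 scaled TPM in aged western-diet hearts, against 500, 536.5, 444 and 497.7 in aged hearts, a log2 fold change of -0.36 ± 0.10 (SE) with a limma adjusted p of 0.0986. Ndufs1 had 264.3, 197.6, 248.3, 182.1 and 184.9 scaled TPM in aged western-diet hearts, against 281.8, 281.8, 281.2 and 296.6 in aged hearts. Its log2 fold change of -0.42 ± 0.17 was the most negative of the set, with a limma adjusted p of 0.24, and Ndufc1 had the most positive at 0.09 ± 0.17. In both Ndufv1 and Ndufs1 every aged western-diet heart lay below every aged heart, and these were the only 2 subunits whose groups did not overlap, against 7.14% of all tested genes. The core subunits as a group spanned -0.42 to 0.08.

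The second comparison asks about age, with aged against adult Hap-I hearts that both carry the western-diet label. No subunit passed the test, where 2.39% of all genes did. At an unadjusted p under 0.05 stood 3 subunits, where 19.7% of all genes did. All 35 fold changes were negative, with a median of -0.20 against -0.01 for all genes. Over all genes the rank correlation of this fold change with transcript length was 0.41. Ndufc2, a small membrane-arm subunit, was the most negative, with 137.8, 204.8, 155, 204.7 and 188 scaled TPM in aged western-diet hearts, against 237.9, 306.5, 246.2 and 172.7 in adult western-diet hearts. The groups overlapped through adult western-diet replicate 4. Its log2 fold change was -0.42 ± 0.15, with a limma adjusted p of 0.135, and Ndufa11 was nearest to 0 at -0.01 ± 0.16. Without adult western-diet replicate 4, 1 subunit passed, Ndufc2, and without replicate 2, 1 passed, Ndufv1. No share of all genes is set beside these counts, so shifts of the subunits and of all genes are not told apart. With only the libraries that held Y-linked transcripts, the median turned to 0.08.

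Aged Hap-I hearts against adult Hap-I western-diet hearts differ in age and in diet label at once. No subunit passed, where 2.14% of all genes did. At an unadjusted p under 0.05 stood 2 subunits, where 21.5% of all genes did. The median log2 fold change was -0.13, with 28 of 35 negative, and the rank correlation of fold change with length over all genes was 0.49. Ndufc2 was again the most negative, with 172.5, 179.7, 159.3 and 154.9 scaled TPM in aged hearts and the adult western-diet values given above, a log2 fold change of -0.50 ± 0.16 with a limma adjusted p of 0.101. Ndufs1 was the most positive at 0.22 ± 0.17. Without adult western-diet replicate 4, Ndufc2 passed the test, with no share of all genes set beside it. With no scaling, the median was 0.22, but the median of all genes was then 0.27.

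The remaining comparisons ask how each Hap-I group stood to adult C57 hearts. The 3 comparisons share the same 3 C57 hearts, so their results are not independent of one another. In aged western-diet hearts 9 of the 35 subunits were lower than in C57 hearts at an adjusted p under 0.05 and none was higher, where 9.57% of all tested genes were lower. In aged hearts 1 was lower, where 4.06% of all genes were, and in adult western-diet hearts 1 was lower, where 1.5% were. These last 2 counts depend on the fit: with only the groups compared, 19 subunits were lower in aged hearts, where 10.1% of all genes were, and with no scaling 6 were lower in adult western-diet hearts, where 0.823% were. The median log2 fold change of the 35 was -0.40 in aged western-diet, -0.36 in aged and -0.19 in adult western-diet hearts, against -0.00, -0.01 and 0.01 for all genes. Over all genes the rank correlation of these fold changes with transcript length was 0.29, 0.43 and 0.04, and with the length correction the median of the 35 in aged hearts became -0.12. Negative fold changes numbered 34, 35 and 29 of 35 in the same order. At an unadjusted p under 0.05 there were 18, 13 and 3 subunits, where 35.5%, 27.8% and 20.4% of all tested genes were, in either direction.

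**Figure D3:**
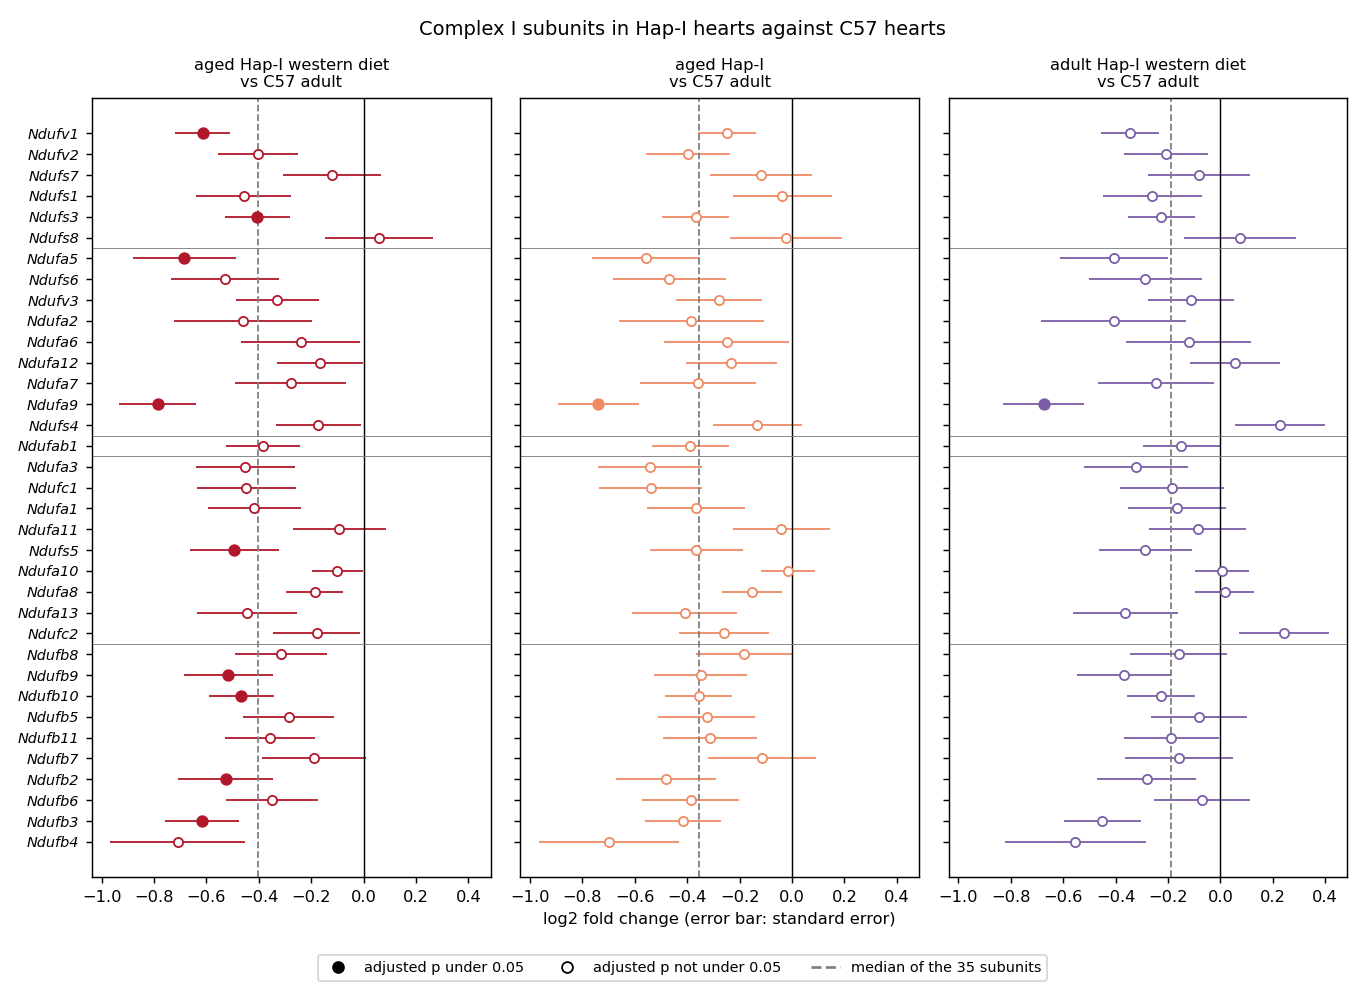
Log2 fold change over C57 hearts (horizontal, error bar 1 standard error) of each subunit gene in aged western-diet, aged and adult western-diet Hap-I hearts; filled points have a limma adjusted p under 0.05, rules part the roles and the dashed line is the median of the 35 (-0.40, -0.36 and -0.19). Ndufa9 is filled in all 3 panels, and 8 further genes only in the first.

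Ndufa9, an accessory subunit beside the quinone site that binds a pyridine nucleotide, was the one subunit called in all 3 comparisons. Its gene lies at chr6:126821721-126849136 (GRCm38, minus strand). It had 89.4, 85.1, 100.9, 98.7 and 113 scaled TPM in aged western-diet hearts, 114.3, 123.8, 96.5 and 73.7 in aged hearts, and 120.6, 102.9, 90.5 and 107.7 in adult western-diet hearts, against 159.4, 180.1 and 165 in C57 hearts. All 13 Hap-I hearts lay below all 3 C57 hearts, while the Hap-I groups overlapped one another. The log2 fold change over C57 hearts was -0.79 ± 0.15 in aged western-diet hearts (limma adjusted p = 0.00248), -0.74 ± 0.15 in aged hearts (0.00972) and -0.67 ± 0.15 in adult western-diet hearts (0.0274). For the 3 Hap-I groups averaged with equal weight it was -0.73 ± 0.13, with a limma adjusted p of 0.00247, and stayed under 0.05 in each of 26 alternatives (0.00169 to 0.0261). The call was lost in 1 of 27 alternatives in aged western-diet hearts (only libraries with Y-linked transcripts), 2 of 27 in aged hearts (no scaling, and a scaling without mitochondrial transcripts) and 13 of 27 in adult western-diet hearts. In the last of these it was lost without any 1 of the 3 C57 hearts.

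Among the core subunits of the peripheral arm, Ndufv1 and Ndufs3 were lower in aged western-diet than in C57 hearts, 2 of 6, where 9.57% of all tested genes were. The 6 spanned -0.61 to 0.06 with a median of -0.40. For Ndufv1, at chr19:4007384-4012806 (minus strand), the 5 aged western-diet hearts given earlier all lay below the 576.2, 597.5 and 586.2 scaled TPM of the C57 hearts, and the log2 fold change was -0.61 ± 0.11 (limma adjusted p = 0.00146). In aged hearts it was -0.25 ± 0.11 (0.155), and in adult western-diet hearts, at 496.4, 377.7, 509.2 and 473.6 scaled TPM, it was -0.35 ± 0.11 (0.0878). The call in aged western-diet hearts was lost with no scaling, with quantile normalization and with a scaling that leaves out mitochondrial transcripts. Ndufs3, a core subunit with no cofactor of its own, had 140, 176.1, 158.2, 199.1 and 175.4 scaled TPM in aged western-diet hearts, against 216.3, 235.6 and 219.3 in C57 hearts, with no overlap. Its log2 fold change was -0.41 ± 0.12 with a limma adjusted p of 0.029, lost in 10 of 27 alternatives. Other genes hold 25.4% of the 31-base words of Ndufs3, so its estimate is uncertain in part. Ndufs8 had the most positive fold change of the 35, 0.06 ± 0.20. In aged hearts the core subunits spanned -0.40 to -0.02, and in adult western-diet hearts -0.35 to 0.08, with none called.

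Among the 9 accessory subunits of the peripheral arm, Ndufa9 and Ndufa5 were lower in aged western-diet hearts, where 9.57% of all tested genes were. The group median was -0.33. Ndufa5 had 509.5, 942.6, 615.6, 1006 and 790.4 scaled TPM in aged western-diet hearts, 852.8, 960.6, 710.2 and 768.9 in aged hearts and 808.7, 1175, 865.4 and 823.9 in adult western-diet hearts, against 1179, 1216 and 1216 in C57 hearts. The Hap-I hearts spread widely, the C57 hearts were close together, and no Hap-I heart reached them. The log2 fold change in aged western-diet hearts was -0.68 ± 0.20 (limma adjusted p = 0.0235), and the call was lost in 8 of 27 alternatives. Ndufs6, which binds zinc, stood at -0.53 ± 0.20 with a limma adjusted p of 0.076 and did not pass.

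Ndufab1, the mitochondrial acyl carrier protein, which complex I shares with fatty acid and iron-sulfur cluster synthesis, did not pass in any comparison. It had 644.3, 830.1, 703.8, 992.5 and 832.6 scaled TPM in aged western-diet hearts, 797.6, 903.7, 704.1 and 761.8 in aged hearts and 957.8, 1052, 970.4 and 767.3 in adult western-diet hearts, against 1013, 1096 and 990.4 in C57 hearts. The aged hearts lay below the C57 hearts and the other Hap-I groups overlapped them. Its log2 fold changes were -0.38 ± 0.14, -0.39 ± 0.15 and -0.15 ± 0.15 in aged western-diet, aged and adult western-diet hearts, with limma adjusted p of 0.0642, 0.101 and 0.607.

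In the proximal membrane arm 1 of 9 accessory subunits (11.1%) was lower in aged western-diet hearts, where 9.57% of all tested genes were. This was Ndufs5, at -0.49 ± 0.17 with a limma adjusted p of 0.0484, and the group median was -0.42. Another gene holds 26.5% of the words of Ndufs5, which lost the call in 17 of 27 alternatives. Ndufc2, with 221.2, 197.5 and 181.2 scaled TPM in C57 hearts, differed in direction between Hap-I groups: -0.18 ± 0.17 in aged western-diet, -0.26 ± 0.17 in aged and 0.24 ± 0.17 in adult western-diet hearts, none called. The last was the most positive fold change of the adult western-diet comparison. Ndufa10, which resembles a nucleoside kinase, stood at -0.10 ± 0.10, -0.02 ± 0.10 and 0.00 ± 0.10 in the same groups, and was the least negative of the 35 in aged hearts.

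In the distal membrane arm 4 of 10 accessory subunits were lower in aged western-diet hearts, where 9.57% of all tested genes were. The group median was -0.41, close to the -0.42 of the proximal membrane arm and the -0.40 of the core subunits. Ndufb3, at chr1:58586384-58595964 (plus strand), had 153.8, 197, 140.1, 223.3 and 176.7 scaled TPM in aged western-diet hearts, 206.5, 242.1, 177.1 and 188.1 in aged hearts and 188.5, 225.4, 193.9 and 183.7 in adult western-diet hearts, against 268.6, 270 and 271.3 in C57 hearts. None of the 13 Hap-I hearts reached the C57 hearts. Its log2 fold change in aged western-diet hearts was -0.62 ± 0.14 (limma adjusted p = 0.00705), lost in 1 of 27 alternatives. Ndufb10 was -0.47 ± 0.12 (0.015, lost in 6 of 27 alternatives), at 547.1 to 754.9 scaled TPM in aged western-diet hearts against 857.2 to 939.3 in C57 hearts. Ndufb9, an LYR-motif protein, was -0.52 ± 0.17 (0.0416) and Ndufb2 -0.53 ± 0.18 (0.0499), both near the threshold and lost in 16 and 19 of 27 alternatives. Ndufb4 had the most negative fold change of this arm, -0.71 ± 0.26, but varied widely, from 56.3 to 101.5 scaled TPM in aged western-diet hearts against 105.4 to 130.7 in C57 hearts, and did not pass (limma adjusted p = 0.0603).

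Across all roles, 6 subunits had all 13 Hap-I hearts below every C57 heart: Ndufa9, Ndufv1, Ndufb3, Ndufa5, Ndufs3 and Ndufb9. The same held for 3.12% of all tested genes.

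**Figure D4:**
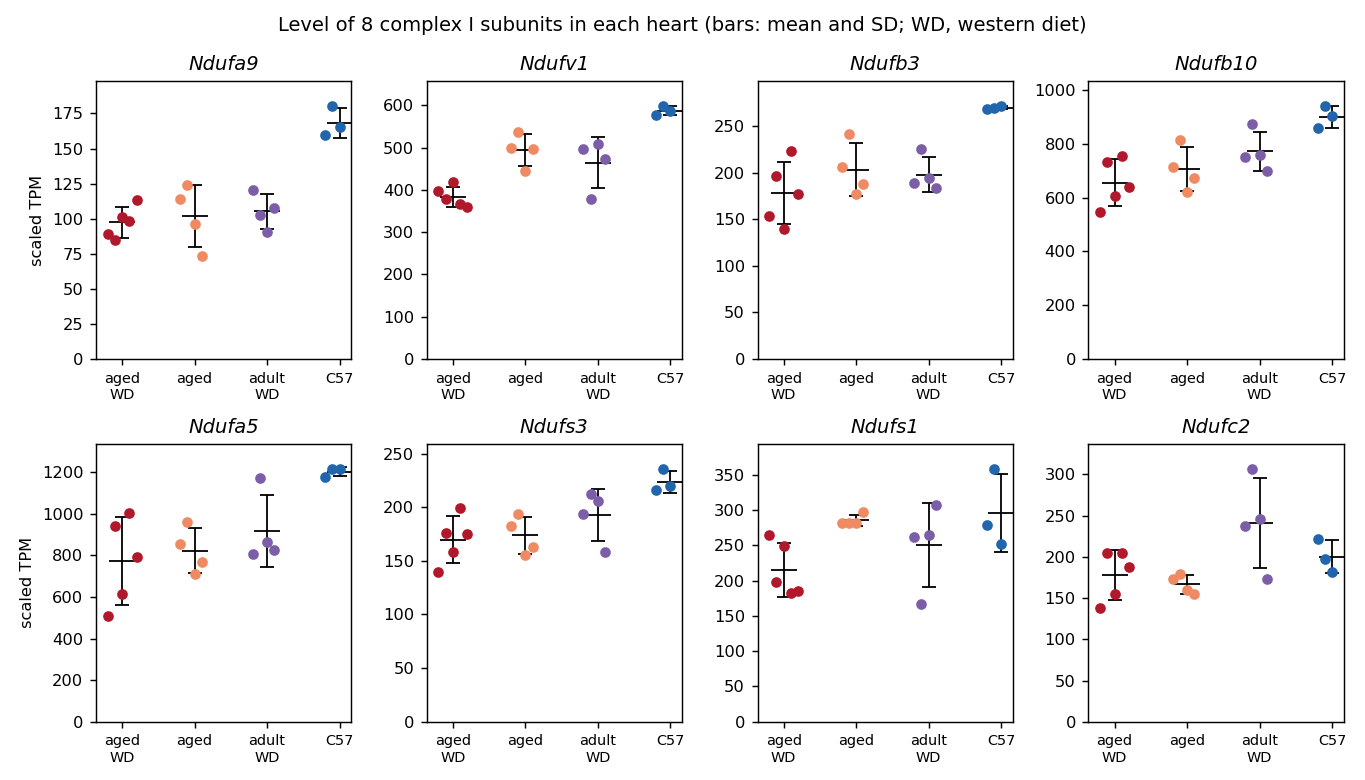
Scaled TPM of 8 subunits in every heart (points) with the group mean and SD (bars), in aged Hap-I western-diet (n = 5), aged Hap-I (n = 4), adult Hap-I western-diet (n = 4) and C57 hearts (n = 3). For Ndufa9, Ndufv1, Ndufb3, Ndufa5 and Ndufs3 all 13 Hap-I points lie below the C57 points, as for 3.12% of all tested genes. In Ndufv1 and Ndufs1 aged western-diet and aged hearts do not overlap, as for 7.14% of all tested genes, and neither passed the test in that comparison. The mean of Ndufc2 is highest in adult western-diet hearts, but these overlap every other group.

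For the mean of the 3 Hap-I groups against C57 hearts, 6 of 35 subunits were lower, where 6.31% of all genes were, and the median was -0.31. They were Ndufa9, Ndufv1 (-0.40 ± 0.09, limma adjusted p = 0.00961), Ndufb3 (-0.49 ± 0.12, 0.0146), Ndufb10 (-0.35 ± 0.11, 0.0389), Ndufa5 (-0.55 ± 0.17, 0.0428) and Ndufs3 (-0.33 ± 0.11, 0.0479). Ndufs8 was the most positive at 0.04 ± 0.18.

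Single libraries set part of these counts. No share of all genes is set beside the counts below, so shifts of the subunits and of all genes are not told apart. The 9 calls in aged western-diet hearts became 5, 4 and 16 without aged western-diet replicates 1, 3 and 4, and 4, 3 and 3 without C57 replicates 1, 2 and 3. Leaving out any other single heart gave 6 to 13 calls. The 1 call in aged hearts became 2, 2 and 4 without aged western-diet replicate 4, aged replicate 2 and adult western-diet replicate 4. The 1 call in adult western-diet hearts became 0 without adult western-diet replicate 2 or 3 or any C57 heart. The 6 calls for the Hap-I mean became 3 without aged western-diet replicate 3, aged replicates 1, 3 or 4, adult western-diet replicates 1 or 3 or C57 replicate 2, 2 without C57 replicate 1 and 1 without C57 replicate 3. Leaving out any other single heart gave 5 to 9 calls for this mean. The median of the 35 kept its sign in all of these, between -0.46 and -0.32 in aged western-diet, -0.41 and -0.28 in aged, and -0.28 and -0.06 in adult western-diet hearts.

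Other features moved with the same comparisons. With the length correction, 13 subunits were lower in aged western-diet than in C57 hearts (10.9% of all genes), 3 in aged (3.25%) and 3 in adult western-diet hearts (2.87%), and the median was -0.26 in aged western-diet hearts. With quantile normalization 4 were called in aged western-diet hearts (8.74% of all genes), with a median of -0.12. With a covariate for atrial markers 4 subunits passed there (Ndufv1, Ndufb3, Ndufb10 and Ndufa9), where 2.27% of all genes were lower. With one for Y-linked transcripts 3 passed (Ndufv1, Ndufa9 and Ndufb3), where 4.89% were lower. With only the libraries holding Y-linked transcripts, which leaves 2 aged western-diet hearts, 2 passed (Ndufv1 and Ndufs1), where 3.14% were lower. The part of atrial tissue and of sex in the uncorrected values was not tested otherwise.

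The rest of the complex I machinery did not follow the subunits uniformly. Of 15 assembly factors, which build the complex but leave it, 3 were lower in aged western-diet than in C57 hearts: Ndufaf1 (-0.37 ± 0.10, limma adjusted p = 0.0151), Ndufaf2 (-0.48 ± 0.12, 0.0117) and Ndufaf7 (-0.33 ± 0.10, 0.0329), with a list median of -0.18. The calls were lost in 8, 3 and 8 of 27 alternatives in that order. None was called in the other groups. Of all tested genes, 9.57%, 4.06% and 1.5% were lower in aged western-diet, aged and adult western-diet hearts. Other genes hold 65.1% of the words of Ndufaf2. The 7 mitochondrially encoded core subunits, the ND proteins, had positive medians of 0.43, 0.04 and 0.41 in aged western-diet, aged and adult western-diet hearts against C57 hearts, while those of the nuclear subunits were negative. In aged hearts 3 of the 7 were negative, and 1, mt-Nd3, was called lower. The gene mt-Nd5, for an antiporter-like subunit at the far end of the membrane arm, had 9271, 11450, 6681, 15380 and 11080 scaled TPM in aged western-diet hearts, against 5180, 7047 and 4819 in C57 hearts, with 1 heart in the C57 range, and a log2 fold change of 0.89 ± 0.26 (limma adjusted p = 0.0231, lost in 6 of 26 alternatives). The level of mt-Nd4l was higher by 1.67 ± 0.28 (0.00126), but 98.9% of its words lie in other genes. Called higher in aged western-diet hearts were thus 2 of the 7, where 12.3% of all tested genes were. For mt-Nd4, which was not called, other genes hold 62.8% of the words.

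Another ND gene, mt-Nd3, differed more between Hap-I groups than any of the 35 nuclear subunits or the other 6 ND genes. It had 5735, 5424, 5127, 4676 and 3893 scaled TPM in aged western-diet hearts, 3671, 4491, 2893 and 3398 in aged hearts and 19090, 19540, 12020 and 14610 in adult western-diet hearts, against 5714, 6582 and 5642 in C57 hearts. The adult western-diet hearts stood above all others with no overlap. The log2 fold change was -1.70 ± 0.17 in aged western-diet over adult western-diet hearts (limma adjusted p = 0.000148), -2.16 ± 0.18 in aged over adult western-diet hearts (1.08e-05) and 1.42 ± 0.19 in adult western-diet over C57 hearts (0.00124). In aged over C57 hearts it was -0.74 ± 0.19 (limma adjusted p = 0.0247), lost in 9 of 26 alternatives. Other genes share 98.1% of its words, so how the reads were divided is uncertain.

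Among the complexes that work with complex I, 7 of 25 genes of complexes II, III and IV and their carrier cytochrome c were lower in aged western-diet than in C57 hearts, with a median of -0.36, then 2 in aged and 0 in adult western-diet hearts. The 4 with the smallest p were Uqcrc1 (-0.55 ± 0.10, limma adjusted p = 0.00281), Cox5a (-0.57 ± 0.14, 0.00895), Cox5b (-0.58 ± 0.16, 0.0195) and Uqcrfs1 (-0.38 ± 0.11, 0.0215). Their calls were lost in 3, 2, 7 and 10 of 27 alternatives in that order. Of 15 ATP synthase genes, 8 were lower in aged western-diet hearts, with a median of -0.50, and 1 in each of the other groups. Beside these and the 25 genes above, 9.57%, 4.06% and 1.5% of all tested genes were lower in aged western-diet, aged and adult western-diet hearts. Atp5b, the catalytic beta subunit, had 2717, 2686, 2939, 3016 and 3033 scaled TPM in aged western-diet hearts, 3608, 4249, 3191 and 3444 in aged hearts and 4249, 3279, 3790 and 3662 in adult western-diet hearts, against 5272, 5233 and 5481 in C57 hearts. Every Hap-I heart was below every C57 heart. Its log2 fold change was -0.89 ± 0.12 (0.000328), -0.56 ± 0.12 (0.0116) and -0.51 ± 0.12 (0.0338) in the 3 groups, and the calls were lost in 0, 4 and 15 of 27 alternatives.

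Of 12 regulators of respiratory genes, 4 were higher in aged western-diet and in aged hearts than in C57 hearts, 1 in adult western-diet hearts and none lower. Of all tested genes, 12.3%, 7.17% and 1.95% were higher in the 3 comparisons. Ppargc1b, a coactivator of mitochondrial genes, had 2.76, 3.89, 4.06, 3.31 and 2.56 scaled TPM in aged western-diet hearts, 2.06, 2.08, 2.77 and 2.54 in aged hearts and 1.82, 3.07, 2.14 and 1.56 in adult western-diet hearts, against 1.01, 0.952 and 1.15 in C57 hearts. No Hap-I heart reached down to the C57 hearts. Its log2 fold change was 1.07 ± 0.15 (limma adjusted p = 0.000411), 0.72 ± 0.15 (0.0109) and 0.61 ± 0.15 (0.0429) in the 3 groups. The last call was lost in 18 of 26 alternatives, among them both covariates and the loss of any C57 heart. Ppara, a fatty acid sensor, was higher by 1.56 ± 0.33 in aged western-diet hearts (0.0048), Esrrg by 0.63 ± 0.13 (0.00398) and Gabpa, the factor of the GABPA motif, by 0.56 ± 0.12 (0.00411). These 3 lost their calls under the atrial covariate and with only the libraries holding Y-linked transcripts, and Gabpa and Esrrg also with no scaling and without mitochondrial transcripts.

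Some cell type markers also differed. For their counts, the shares of all tested genes called lower than in C57 hearts were 9.57%, 4.06% and 1.5% in aged western-diet, aged and adult western-diet hearts. The 14 ventricular cardiomyocyte markers had a median log2 fold change of -0.11 in aged western-diet over C57 hearts, with 1 called higher and 2 lower. The 9 fibroblast markers summed to 242.5 to 403.2 scaled TPM in aged western-diet hearts against 450 to 516.7 in C57 hearts, with a median log2 fold change of -0.55 and 2 called lower, Dcn and Dpt. Of 7 tested smooth muscle and pericyte markers, 3 were lower in aged western-diet than in C57 hearts, namely Myh11 (-1.50 ± 0.19, limma adjusted p = 0.000271), Kcnj8 and Tagln, with a median of -0.60, and 2 were lower in adult western-diet hearts, with a median of -0.67. Of 4 tested adipocyte markers, 1, Fabp4, was lower in aged western-diet hearts (median -0.95) and in aged hearts (median -0.65). Fabp4 stood at 342.6 to 829.2 scaled TPM over all hearts, whereas Adipoq, Cidec and Car3 reached at most 4.53, 3.48 and 22.6. Whether Fabp4 tracked fat cells in these hearts was not tested. None of 7 endothelial or 8 leukocyte markers was called in aged western-diet hearts, with medians of -0.35 and -0.06. The 8 atrial markers had a median of -3.68, with 5 lower. Their part in the complex I values, beyond the atrial covariate above, was not tested.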

How the data were processed

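Poly(A)-selected, strand-preserving libraries were made from the hearts, per the labels' protocols. The authors deposited 1 table of TPM per gene; kallisto, DESeq2 and GRCm38 are named, without versions, per the submitters' processing notes. TPM carry no depth. Symbols matched 29732 of 30153 gene IDs. The 11415 genes that reached 1 TPM in 3 or more libraries were kept, and each library was divided by its median-of-ratios size factor. One limma 3.58.1 model (R 4.3.3) with a variance trend and 4 group means was fitted to the 16 libraries on the log2(scaled TPM + 1) scale and tested on simulated data; fold changes on this scale understate low genes. Tests were two-sided, adjusted by Benjamini-Hochberg over all genes within each of 7 contrasts; ± after a fold change is a standard error. Transcript lengths are medians of annotated transcripts, and the length correction is a lowess (span 0.3). A word is shared if its 31 bases occur in another gene's transcripts; 6 subunits exceed 20% shared words. Per comparison the text names called subunits (up to 10), the highest and lowest fold change, and per role the subunit with the smallest F-test p; other lists give up to 4 called genes. The members and lists were chosen with earlier results of these data known. Alternatives were other scalings (none, quantile, without mitochondrial transcripts), a pseudocount of 0.1, no filter, a filter at 5 TPM, the length correction, Y-linked and atrial covariates, subsets of libraries and leaving out each library.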

Additional observations from a re-analysis of the deposited data

Results flagged for a closer look

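In the Hap-I groups, each subunit and the per-heart median were checked for a heart far from the rest of its group, 108 checks in all; chance gives about 1 in 20, and 2 stood out. Ndufs1 was at 296.6 scaled TPM in aged replicate 4, against 281.2 to 281.8 in the other 3 aged hearts, a small gap beside a tight trio. Ndufa5 was at 1175 scaled TPM in adult western-diet replicate 2, against 808.7 to 865.4 in the other 3 adult western-diet hearts. That heart also had the highest complex I median of the 16 hearts (0.38) and the highest mitochondrial share of TPM (46.1%).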

How the results depend on the processing

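Under the alternatives run, no called gene of complex I, its assembly factors and regulators, complexes II to IV or ATP synthase changed sign. Percentages are the share of all tested genes called lower under the same setting. For aged western-diet over C57 hearts, the 9 calls (9.57%) became 17 with no scaling (2.91%), 4 with quantile normalization (8.74%, median -0.12), 16 without mitochondrially encoded transcripts (2.89%), 3 with the Y-linked covariate (4.89%), 2 with only libraries holding Y-linked transcripts (3.14%), 4 with the atrial covariate (2.27%) and 4 with only the groups compared (4.95%). For aged over C57 hearts, the 1 call (4.06%) became 0 with no scaling (0.184%), 2 without mitochondrially encoded transcripts (0.491%), 3 with the length correction (3.25%, median -0.12), 3 with only libraries holding Y-linked transcripts (4.64%) and 19 with only the groups compared (10.1%); the median was -0.10 with quantile normalization. For adult western-diet over C57 hearts, the 1 call (1.5%) became 6 with no scaling (0.823%), 3 without mitochondrially encoded transcripts (0.693%), 3 with the length correction (2.87%), and 0 with quantile normalization (1.34%), no filter (0.573%), the Y-linked covariate (0.517%), the atrial covariate (0.359%), only libraries holding Y-linked transcripts (0.298%) or only the groups compared (0.289%). For the Hap-I mean, the 6 calls (6.31%) became 12 with no scaling (1.8%), 14 without mitochondrially encoded transcripts (2.11%), 11 with the length correction (7.63%), and 3 with quantile normalization (5.42%), no filter (2.72%), the Y-linked covariate (3.94%) or the atrial covariate (1.9%). The median turned to 0.08 in aged western-diet over adult western-diet hearts with only libraries holding Y-linked transcripts, and to 0.22 in aged over adult western-diet hearts with no scaling, where all genes shifted by 0.27. No scaling shifted the median of all genes by 0.13 in aged and -0.13 in adult western-diet over C57 hearts, and leaving out mitochondrial transcripts by 0.11 in aged over C57 hearts. The cause was not tested for any of these. A fit of only the groups compared was not run for the Hap-I mean, which uses every group. Leaving out 1 library at a time gave 0 to 0, 0 to 1 and 0 to 1 calls in the 3 comparisons among Hap-I groups (medians -0.12 to 0.04, -0.30 to -0.11 and -0.23 to -0.05), and 3 to 16, 1 to 4, 0 to 1 and 1 to 9 calls against C57 hearts in aged western-diet, aged and adult western-diet hearts and the Hap-I mean (medians -0.46 to -0.32, -0.41 to -0.28, -0.28 to -0.06 and -0.34 to -0.28). No share of all genes is set beside these leave-one-out counts. No paired analysis was possible because the labels number each animal once and share no number between groups. TPM keep no depth, so counting error in the low genes Ndufs8 and Ndufs4 is unknown, and 3 C57 hearts limit every comparison with that group.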
